A study of Mus musculus with 4 samples.

Results

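Prdm16, Ppargc1a, Ppara and Ebf2 are 4 genes that set brown and beige fat identity, and they were described here in inguinal white fat of obese mice given vehicle or entacapone. The genes were chosen by name, with earlier results of these data known. They are 4 of the 37315 Ensembl identifiers in the input count tables. Of those identifiers, 13820 had at least 1 CPM (the standard scaling of counts to the library total) on average. All 4 passed that limit. Their m6A peaks were those with a midpoint inside the gene span of the mouse assembly mm10, 22 of the 22860 peaks of the vehicle list and 32 of the 31856 peaks of the entacapone list.

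All libraries came from male C57BL/6 mice aged 23 weeks with obesity induced by a high-fat diet. For each treatment, vehicle or entacapone, there was 1 input library and 1 library of RNA pulled down with an m6A antibody (the immunoprecipitate, IP). Entacapone is an inhibitor of catechol-O-methyltransferase used in Parkinson's disease and is also described as an inhibitor of FTO, an enzyme that removes the methyl group of N6-methyladenosine (m6A) from RNA. The labels give neither its dose nor the length of treatment, nor whether a library held 1 animal or a pool. No group had a replicate, so every difference below lies between single libraries and no test across samples exists.

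Brown and beige adipocytes burn fat to make heat, and a small set of transcription factors and coregulators gives them that identity. Prdm16 is a zinc finger coregulator that drives the brown program and represses white fat genes. Ebf2 is a helix-loop-helix factor that marks brown and beige precursors and opens thermogenic genes for PPARγ. Ppargc1a encodes PGC-1α, the coactivator of mitochondrial biogenesis that responds to cold and adrenergic signals, and Ppara encodes PPARα, the fatty acid-sensing nuclear receptor whose targets oxidise fat. The modification m6A is placed on messenger RNA mainly near stop codons and in long exons, and it bears on transcript decay and translation. A peak is a stretch where IP reads outnumber input reads. The number given with it carries no label and is taken here as the authors' fold, the enrichment of IP over input.

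Sequence is shown for the stretches around the annotated start of Prdm16 and Ppara, because each held a peak in the entacapone list and none in the vehicle list. Of the 4 members, 3 matched a start window of RefSeq (GRCm38.p6, the assembly also called mm10), which runs from 250 bases before the start to 50 bases after it, and Ebf2 had no entry. The 2 sequences are printed from 250 bases before the start to 30 bases after it, 5′ to 3′ on the gene's own strand, with the bases under the entacapone peak in capitals. The peak lists do not state whether starts count from 0 or 1, so the edge of the capitals may lie 1 base off.
Prdm16, chr4:154636844-154637123, minus strand: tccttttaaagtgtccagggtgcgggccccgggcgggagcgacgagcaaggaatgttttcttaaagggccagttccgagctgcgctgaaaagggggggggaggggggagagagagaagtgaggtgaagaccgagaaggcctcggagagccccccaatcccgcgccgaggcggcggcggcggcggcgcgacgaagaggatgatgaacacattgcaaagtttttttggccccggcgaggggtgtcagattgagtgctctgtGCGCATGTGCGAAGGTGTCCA
Ppara, chr15:85735526-85735805, plus strand: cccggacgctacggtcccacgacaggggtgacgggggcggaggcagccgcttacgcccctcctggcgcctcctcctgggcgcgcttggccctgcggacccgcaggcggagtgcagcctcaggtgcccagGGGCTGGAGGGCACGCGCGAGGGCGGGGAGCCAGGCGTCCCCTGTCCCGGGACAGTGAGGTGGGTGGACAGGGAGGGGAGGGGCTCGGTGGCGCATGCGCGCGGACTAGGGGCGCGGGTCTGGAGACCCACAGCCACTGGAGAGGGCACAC
In Ppara the peak covered 171 of the 300 window bases, 121 of them before the listed start. In Prdm16 it covered 41 bases, all of them after the start. Across 17492 protein-coding genes with such a window, 7.62% had an entacapone peak over it and 4.73% a vehicle peak, and 4.40% had one in the entacapone list alone. The letters GGAC, the commonest core of the m6A consensus, occurred 5 times on the sense strand and 3 times on the antisense strand of the Ppara window, and 3 of the sense matches lay under the peak. The longer motif GGACT, which contains GGAC, occurred 1 time on the sense strand of that window, under the peak. In the printed sequence all sense matches to both motifs lie before the listed start, so RNA begun at that start would lack them. The Prdm16 window had 0 sense and 2 antisense matches to GGAC and none to GGACT on either strand, which says only that these letters are absent from that window. GGAC was present on the sense strand of 65.6% and on either strand of 87.7% of all 32851 start windows, and GGACT on 26.1% and 45.5%. The presence or absence of either motif thus does not set these windows apart. The number of matches in a window was not compared with that of other windows.

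Input RNA levels were compared first, to ask whether the transcripts of the regulators differed in abundance. The precursor and beige factor Ebf2 (ENSMUSG00000022053), the coactivator gene Ppargc1a (ENSMUSG00000029167) and the receptor gene Ppara (ENSMUSG00000022383) all stood higher in the entacapone input, by 46.1%, 41.5% and 29.7%. Prdm16 (ENSMUSG00000039410), the zinc finger coregulator, was at nearly the same level in both libraries. An identifier was called only if the whole 95% counting interval of its ratio lay beyond 1.5-fold. None of the 4 met that rule, against 5.6% of the 13820 identifiers called higher and 2.52% called lower.

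Ebf2 had 465 vehicle and 918 entacapone counts, or 18.9 CPM (exact Poisson 95% interval 17.3 to 20.7) and 27.7 CPM (25.9 to 29.5). With library totals the intervals of the levels did not overlap, and those of Ppargc1a and Ppara, given below, did not either. With TMM factors the Ppara intervals did overlap, at 8.47 to 11.0 CPM in vehicle and 10.6 to 13.0 CPM in entacapone. They also overlapped with DESeq2 size factors, whereas those of Ebf2 and Ppargc1a stayed apart with both. How many of all identifiers had levels whose intervals did not overlap was not counted. The entacapone over vehicle ratio of Ebf2 was 1.46, with an exact conditional (Clopper-Pearson) 95% interval of 1.31 to 1.64. Of the 13820 identifiers, 1623 had a larger ratio. In fat this factor is made by committed precursors as well as by brown and beige adipocytes. In a bulk library more cells of a type and more RNA per cell cannot be told apart.

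Ppargc1a had 158 vehicle and 302 entacapone counts, or 6.44 CPM (5.47 to 7.52) and 9.11 CPM (8.11 to 10.2). Its ratio was 1.41, with an interval of 1.16 to 1.73, the widest of the 4 because it had the fewest counts. Ppara had 230 and 403 counts, or 9.37 CPM (8.20 to 10.7) and 12.2 CPM (11.0 to 13.4), a ratio of 1.30 with an interval of 1.10 to 1.53. Both transcripts therefore lay on the same side of 1 as Ebf2, beyond counting error and short of the rule for a call.

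Prdm16 had 659 vehicle and 857 entacapone counts, or 26.8 CPM (24.8 to 29.0) and 25.8 CPM (24.1 to 27.6). The ratio was 0.96, with an interval of 0.87 to 1.07 that included no change. The interval of Prdm16 lay wholly below those of Ppargc1a, Ppara and Ebf2, so within these libraries its transcript did not follow theirs beyond counting error. These intervals carry no spread between animals.

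The intervals of Ppargc1a, Ppara and Ebf2 lay wholly above 1, which was also true of 37.3% of all tested identifiers, and 20% lay wholly below 1. Among the 4314 identifiers whose vehicle counts fell in the range of the 4 members, 37.1% had an interval wholly above 1 and 5.33% were called higher. An interval wholly above 1 was thus common among identifiers of like depth. The median ratio of all identifiers was 1.06 with library totals and 0.99 with TMM factors, a shift of the whole scale. Relative to that median, the ratios were 1.38 for Ebf2, 1.34 for Ppargc1a, 1.22 for Ppara and 0.91 for Prdm16. Prdm16 lay wholly below 1 with DESeq2 size factors alone (ratio 0.90, interval 0.81 to 0.99).

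**Figure D1:**
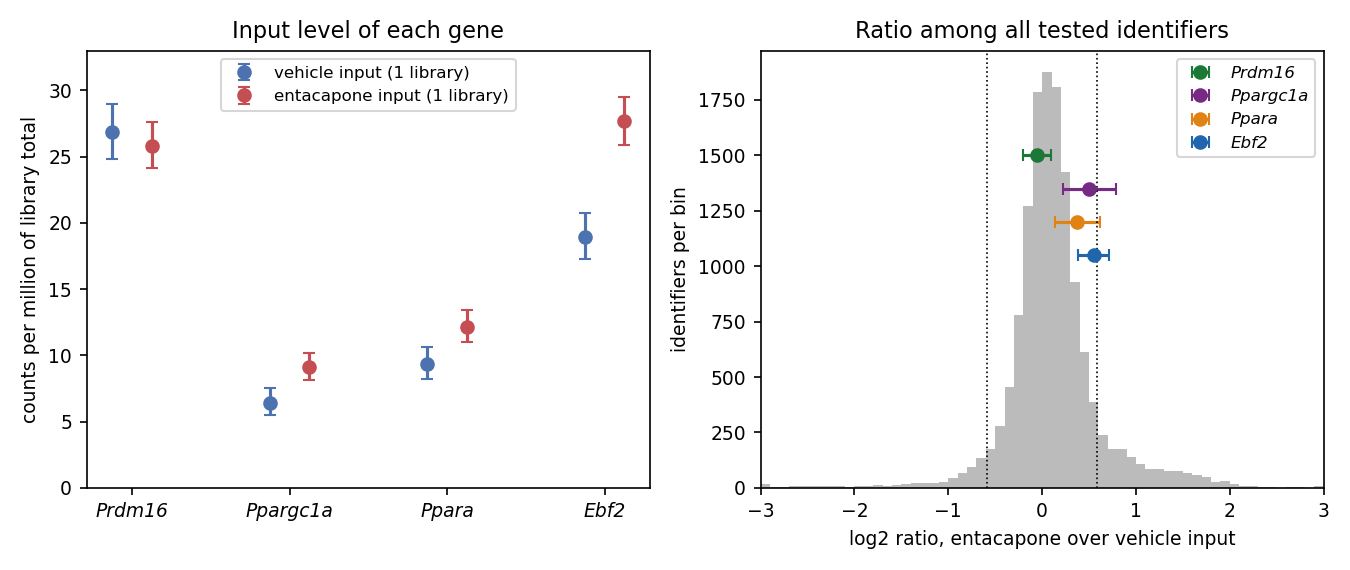
Left: input level of each gene in CPM, 1 point per library with its exact Poisson 95% interval. Right: the log2 entacapone over vehicle ratio of each member with its 95% interval, over a histogram of all tested identifiers with a count in both inputs. Values of log2 ratio beyond -3 or 3 are in the outermost bins, and dotted lines mark 1.5-fold. Ebf2, Ppargc1a and Ppara lie right of 0 and Prdm16 spans it.

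The peak lists were then compared, to ask where the m6A signal on these transcripts differed. Each of the 4 genes carried peaks in both lists, as did 38.7% of 21887 protein-coding genes. Those genes were not matched to the members for input level or span length, and 10423 of them had no peak in either list. The number of peaks in the vehicle and entacapone lists was 14 and 16 in Prdm16, 2 and 6 in Ppargc1a, 2 and 4 in Ppara and 4 and 6 in Ebf2. All 4 genes had more peaks in the entacapone list, as did 46.4% of the genes with a peak in both. The entacapone list is also the longer one, and its input library held 33164576 counts against 24548212. The depth of the IP libraries is not used here, and its part in the number of peaks was not tested.

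The surplus of entacapone peaks was not the same under each limit on the fold. With as many top-ranked peaks from each list, which keeps entacapone peaks from fold 2.39 upward, Prdm16 had 14 and 14 peaks and the other 3 genes kept their numbers. At a fold of at least 4, Prdm16 had 6 vehicle and 4 entacapone peaks and Ebf2 4 and 3, the opposite order. At that limit Ppargc1a had 2 and 2 peaks and Ppara 0 and 3. Ppara was thus the 1 member with more entacapone peaks under every limit on the fold that was applied. A limit of 4 takes the folds of both lists as alike, which was not tested. The Ppara vehicle peaks, with folds of 3.79 and 3.10, lay under it.

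**Figure D2:**
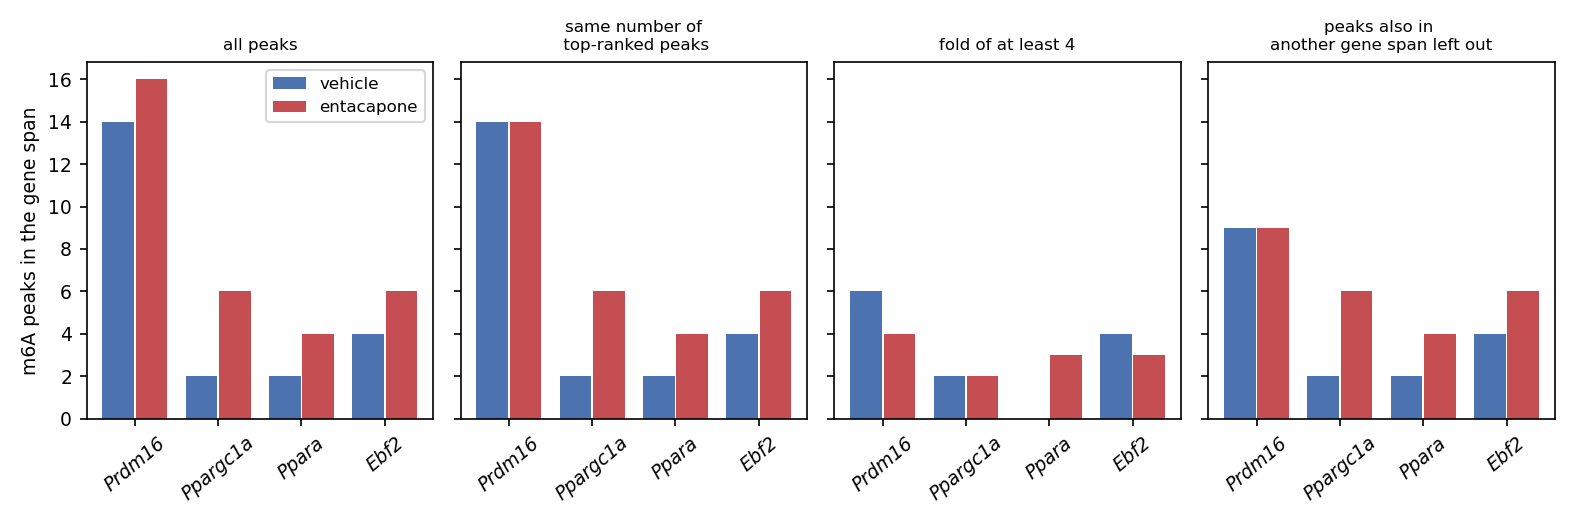
Number of m6A peaks in each gene span, vehicle in blue and entacapone in red, under 4 ways of counting. All 4 genes have more entacapone peaks with all peaks, and Ppara alone does at a fold of at least 4.

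Peaks that overlapped by at least 1 bp were counted as shared. Over the 4 genes 16 of 22 vehicle peaks were shared, and 16 of 32 entacapone peaks. In the whole lists 78.7% of vehicle peaks and 55.9% of entacapone peaks were shared. The members differed from each other: 12 of 14 vehicle peaks were shared in Prdm16, 2 of 2 in Ppara, 2 of 4 in Ebf2 and 0 of 2 in Ppargc1a.

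**Figure D3:**
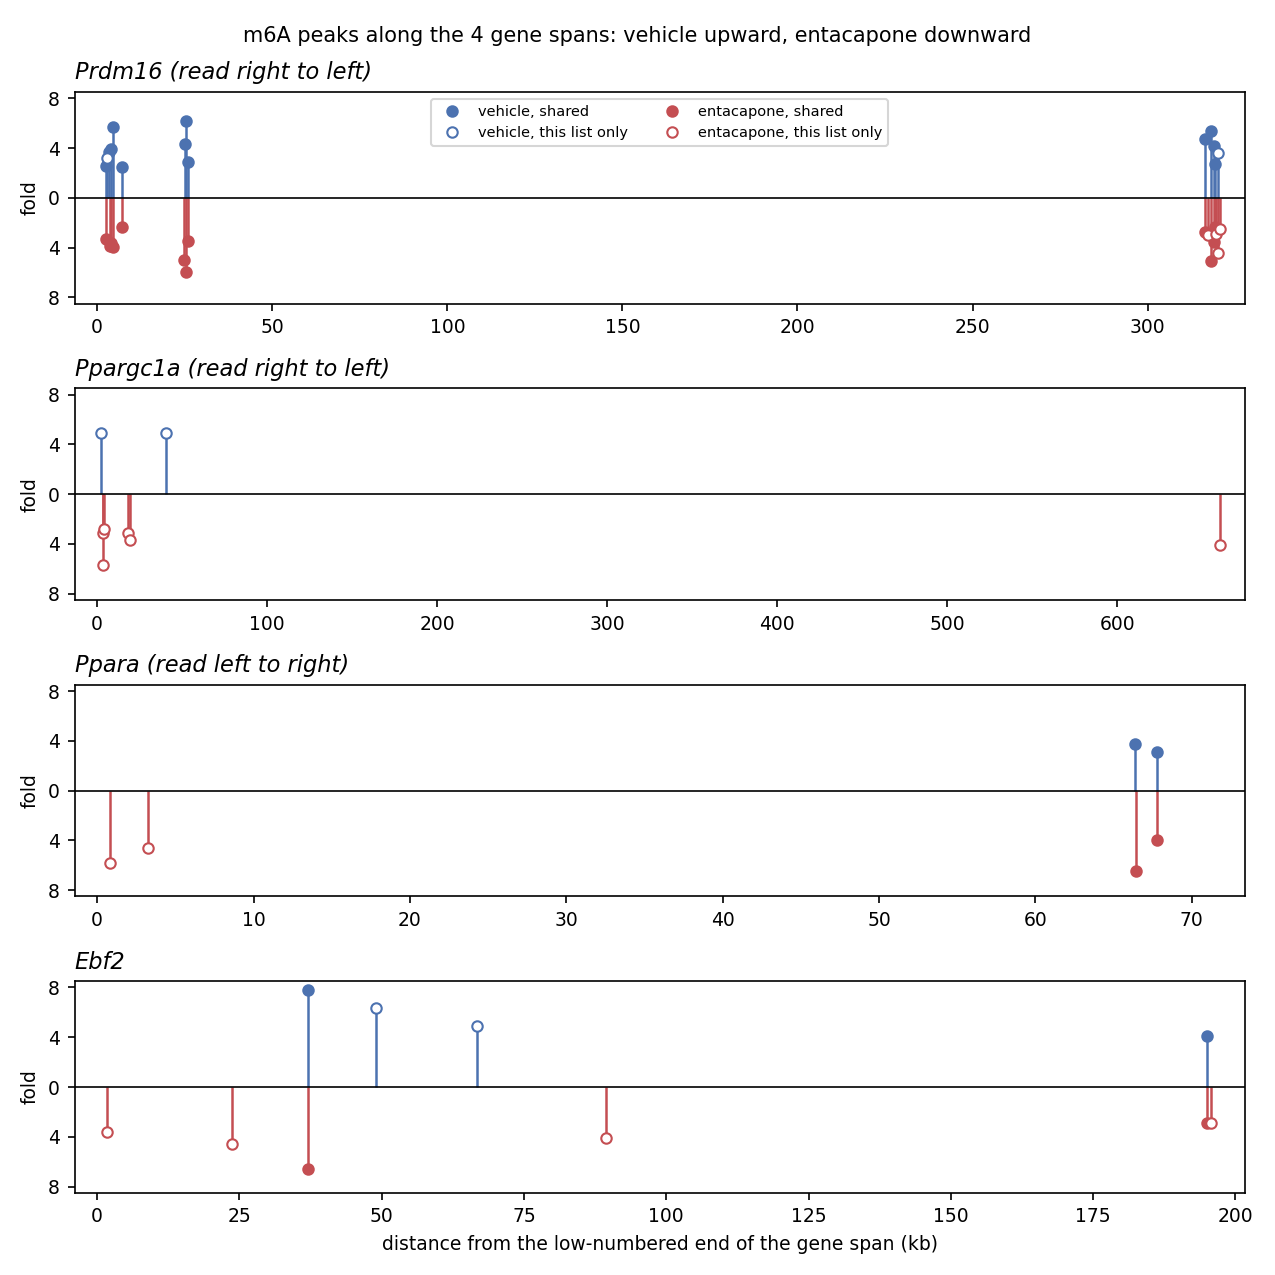
Each m6A peak by distance from the low-numbered end of the gene span in kb, with the authors' fold as its height, vehicle upward and entacapone downward. Filled points are peaks that overlap a peak of the other list and open points are not. Prdm16 shows 3 groups of peaks common to both lists, whereas no peak of Ppargc1a is filled.

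Ppargc1a, on the minus strand of chromosome 5 (51454249 to 52115853), had no peak in common between the lists. Its vehicle peaks lay at 51456718 to 51456767 (fold 4.94) and 51494619 to 51494676 (fold 4.90), and were 49 and 57 bp wide, against a list median of 115 bp. The entacapone peaks formed a cluster of 3 at the end of the gene, at 51457535 to 51457624 (fold 3.10), 51457712 to 51457846 (fold 5.70) and 51457948 to 51458028 (fold 2.76). That cluster lay 3.33 to 3.74 kb from the end of the span, and the nearest vehicle peak was 768 bp away from it, nearer the end. A pair of entacapone peaks followed at 51472627 to 51472683 (fold 3.11) and 51473676 to 51473795 (fold 3.69), 18.4 and 19.5 kb from the end.

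The sixth entacapone peak of Ppargc1a, at 52114501 to 52114572 (fold 4.08), lay 1.32 kb from the upstream end of the span and 547 kb upstream of the start in the RefSeq window table. It therefore lies near the far upstream start that the annotated span includes. The peak of largest fold in the gene, 5.70, stood at percentile 90.9 of its list, and the vehicle peaks at percentiles 79.5 and 78.9 of theirs. Of 5254 protein-coding genes with at least 2 vehicle peaks and an entacapone peak, 79 (1.5%) had no shared vehicle peak, Ppargc1a among them. That count was chosen after the peaks of Ppargc1a had been seen. It includes genes with more vehicle peaks than Ppargc1a. Of the 2262 genes with 2 vehicle peaks and an entacapone peak, 65 (2.87%) had no shared vehicle peak. Of the same 2262 genes, 69 (3.05%) had 6 or more entacapone peaks. These values describe a gene with few counts in the input, and both vehicle peaks are narrow.

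Ppara, on the plus strand of chromosome 15 (85734910 to 85806851), kept both of its vehicle peaks. The first was at 85801146 to 85801474 (fold 3.79) in the vehicle list and at 85801194 to 85801503 (fold 6.43) in the entacapone list, with 280 bp in common. The second was at 85802671 to 85802740 (fold 3.10) and 85802644 to 85802800 (fold 3.93), with 69 bp in common. These sites lay 5.54 and 4.15 kb from the end of the span in the vehicle list. The folds are set side by side as each list gives them and were not compared between lists.

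The other 2 Ppara peaks were in the entacapone list alone and lay at the beginning of the gene. One spanned the annotated start, at 85735655 to 85735865 (fold 5.82, percentile 91.4 of its list), and is the peak capitalised in the sequence above. The next, 49 bp wide, lay 2.40 kb downstream of the start at 85738154 to 85738203 (fold 4.63). The nearest vehicle peak lay 65191 bp from the first and 62943 bp from the second. In Ppara the peaks of the vehicle list therefore lay at the end of the gene only, and those of the entacapone list at both ends.

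Prdm16, on the minus strand of chromosome 4 (154316122 to 154637360), had the most peaks of the 4. Counting every peak in the span, 19 protein-coding genes had more vehicle peaks and 28 had more entacapone peaks. With peaks in a lncRNA span left out for every gene, a choice made after seeing the data, Prdm16 had 9 and 9, and 86 genes had more vehicle and 140 more entacapone peaks. Its peaks fell into 3 groups, separated by more than 5 kb from each other. The first group, at the end of the gene (154318624 to 154323394), held 6 vehicle and 5 entacapone peaks, with 5 shared. The second, at 154341005 to 154342053, held 3 and 3 with all of them shared, including the peak of largest fold in both lists, at 154341326 to 154341511 (fold 6.15) and 154341325 to 154341535 (fold 5.93). The 1 vehicle peak of these groups without a partner was at 154319003 to 154319086 (fold 3.21).

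The third group lay next to the start, at 154632439 to 154636864, and held 5 vehicle and 8 entacapone peaks, with 4 of each shared. All 5 vehicle peaks and 7 of the 8 entacapone peaks had their midpoint in a second annotated gene, the long noncoding RNA 5930403L14Rik (154630691 to 154636367), which lies inside Prdm16 on the same strand. Of all peaks in protein-coding spans, 4.8% in the vehicle list and 4.96% in the entacapone list also lay in the span of a long noncoding RNA. The lists carry no strand and no exon, so which of the transcripts those peaks belong to cannot be told apart. Without them Prdm16 had 9 vehicle and 9 entacapone peaks, with 8 of each shared, and the difference in number between the lists was 0.

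The peaks of the third group in 1 list alone were a vehicle peak at 154636265 to 154636324 (fold 3.59) and 4 entacapone peaks. The vehicle peak and the entacapone peak at 154636125 to 154636186 (fold 4.40) were 79 bp apart, and with peaks within 100 bp counted together 13 of 14 vehicle peaks were shared. The remaining ones were at 154633239 to 154633298 (fold 2.99), 154635684 to 154635777 (fold 2.93) and 154636742 to 154636864 (fold 2.53). The last of these lies outside 5930403L14Rik, 70 bp downstream of the annotated start of Prdm16 at its midpoint, and is the peak capitalised in the Prdm16 sequence above.

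**Figure D4:**
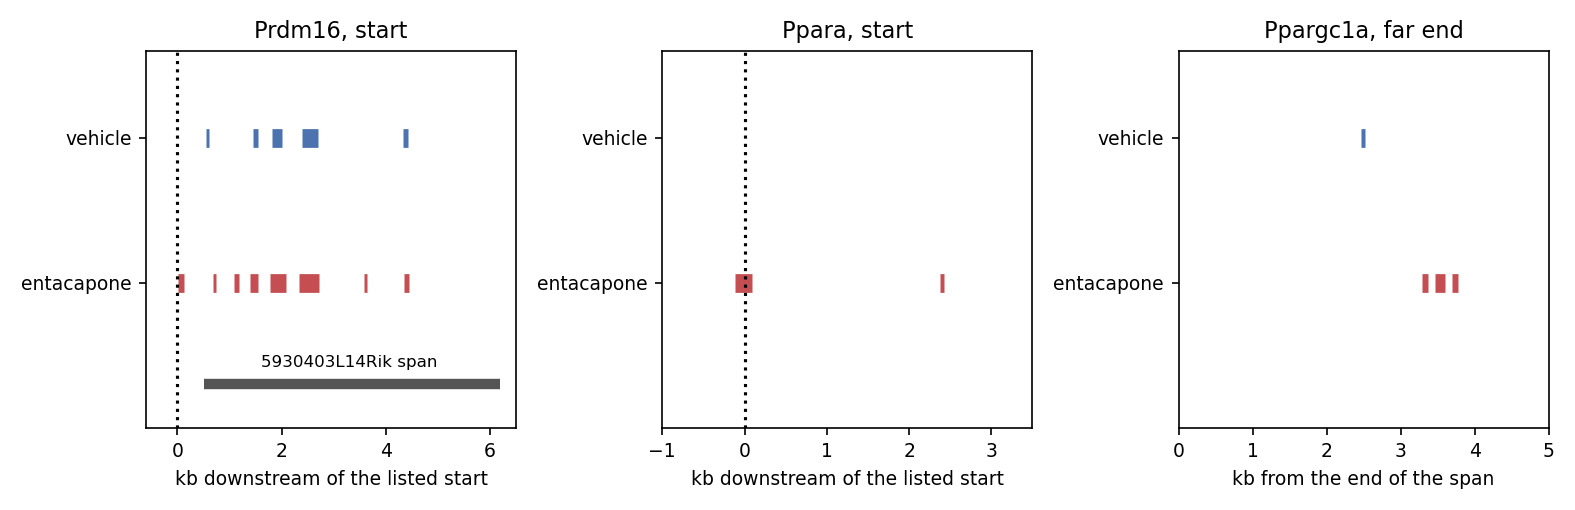
Extent of each peak, vehicle in blue and entacapone in red, near the start of Prdm16 (kb downstream of the listed start, with the 5930403L14Rik span in grey), near the start of Ppara and at the far end of Ppargc1a (kb from the end of the span). The Prdm16 peaks lie over the noncoding gene in both lists apart from the entacapone peak at the start, the Ppara start has entacapone peaks alone, and the Ppargc1a peaks do not overlap.

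Ebf2 spans 67233292 to 67430952 on chromosome 14. Its shared peaks were at 67270231 to 67270344 (fold 7.76) and 67428140 to 67428371 (fold 4.12) in the vehicle list, and at 67270268 to 67270350 (fold 6.62) and 67428137 to 67428372 (fold 2.88) in the entacapone list. The peak at 67270231 had the largest fold of all 54 peaks of the 4 genes and stood at percentile 96.8 of the vehicle list. Its entacapone partner stood at percentile 95.4. The vehicle list alone had peaks at 67282330 to 67282403 (fold 6.39) and 67300040 to 67300151 (fold 4.94).

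The entacapone list alone had Ebf2 peaks at 67234921 to 67235170 (fold 3.59), 67256862 to 67256957 (fold 4.59), 67322685 to 67322856 (fold 4.08) and 67428932 to 67428986 (fold 2.92). The first of them, 249 bp wide, lay 1.75 kb from the low-numbered end of the span. The peaks at 67428137 and 67428932 lay 2.70 and 1.99 kb from the other end. None of the Ebf2 peaks lay in the span of 1 of the 4 noncoding genes annotated inside or across the gene. Of 741 genes with 4 vehicle peaks and an entacapone peak, 147 (19.8%) had 2 or fewer of them shared, so Ebf2 is no rare case by that measure.

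Within the gene families the members were set beside their paralogues. Of the PRDM genes, Prdm2 had 10 vehicle and 11 entacapone peaks, Mecom (Prdm3), which acts beside Prdm16 in brown fat, 6 and 6, Prdm1 4 and 2, and Prdm15 1 and 5. Prdm4 and Prdm8 had 3 and 5 each, Prdm10 3 and 3, Prdm9 2 and 2, Prdm11 1 and 4, Prdm6 0 and 2, and Prdm12, Prdm13 and Prdm14 none. The count for Prdm16 was above that of Prdm2 only with the peaks that also lie in the span of 5930403L14Rik. Without them it had 9 and 9, fewer than the 10 and 11 of Prdm2.

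The paralogues of Ppargc1a shared their vehicle peaks more often: Ppargc1b, which encodes PGC-1β, had 3 vehicle and 4 entacapone peaks with 3 of the vehicle peaks shared, and Pprc1 had 8 and 7 with 7 shared. Of the PPAR genes, Pparg, the receptor that drives fat cell formation, had 3 and 6 peaks and Ppard 2 and 2, beside 2 and 4 in Ppara. Of the EBF genes, Ebf1 had 6 and 9, Ebf3 2 and 2 and Ebf4 0 and 1, beside 4 and 6 in Ebf2. With 1 list per treatment these are counts and no test separates the paralogues.

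A wider list of 46 cofactors and regulators of brown and beige fat put these numbers in context. Of them 36 had a vehicle peak and 39 an entacapone peak, 23 (50.0%) had more entacapone peaks and 7 (15.2%) fewer, against 29.2% and 8.0% of all protein-coding genes. Among genes with a peak in either list, 56.1% of 41 regulators and 55.8% of 11464 protein-coding genes had more entacapone peaks, and 17.1% and 15.3% had fewer. The largest differences were in Ep300, a histone acetyltransferase (5 and 9), Nrip1, a corepressor of PGC-1α targets (5 and 9), and Rxra, the partner receptor of PPARα (1 and 5). Of the vehicle peaks in the list 73.8% were shared, against 79.6% over all protein-coding genes.

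A list of 34 thermogenic genes and targets of PPARα and PGC-1α carried 17 vehicle and 33 entacapone peaks, whereas the 46 regulators carried 130 and 166. Of the 34, 10 had a vehicle peak and 16 an entacapone peak, against 41.1% and 50.0% of all protein-coding genes. In 9 (26.5%) there were more entacapone peaks and in 0 fewer, against 29.2% and 8.0%, and 18 had none in either list. Among the 16 with a peak in either list, 56.2% had more entacapone peaks, against 55.8% of all such genes. Of the vehicle peaks in the list 94.1% were shared, against 79.6% over all protein-coding genes. The largest differences were in Cpt1a, the carnitine transferase of fatty acid import (0 and 3), Tmem26, a beige cell surface marker (1 and 4), and Acadl, a fatty acid oxidation enzyme (0 and 2), with the same counts in Hadha and Pank1. Ucp1, Cidea, Dio2 and Cox8b, effectors of the brown program, were listed with 0 peaks in both lists. A gene with no listed peak may still carry m6A, since detection needs enough reads.

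Markers of other cell types in the tissue were counted the same way, beside the 41.1% and 50.0% of all protein-coding genes that had a vehicle and an entacapone peak. Of 10 white adipocyte markers 5 had a vehicle and 7 an entacapone peak, with 9 and 18 peaks in all, and Adipoq, Fabp4 and Pnpla2 had none in either list. Absence of a peak does not speak to expression. Skeletal muscle, in which Ppargc1a and Ppara are also active, had 7 and 7 of 12 markers with peaks and 16 and 33 peaks, with Acta1, Ckm, Pax7 and Myod1 at 0 in both lists. Endothelial markers had 3 and 8 of 8 and 4 and 24 peaks, lymphocyte and lymph node markers 7 and 9 of 10 and 18 and 29 peaks. Adipocyte progenitor markers, the cells in which Ebf2 is known, had 4 and 5 of 8 and 8 and 11 peaks. Macrophage markers had 3 and 3 of 8, nerve and Schwann cell markers 5 and 7 of 8, and mammary and skin epithelium markers 3 and 5 of 8. The part of these cells in the peaks and input levels of the 4 genes was not tested, and marker levels in the input are not given, since the tables hold identifiers without names.

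Genes with the same numbers of vehicle, entacapone and shared vehicle peaks were looked up among protein-coding genes. Ppargc1a had 3 such genes, Esr1, Abi3bp and Mtcl1, each with 2 vehicle peaks, 6 entacapone peaks and 0 shared. Ebf2 had 8, of which Tns1 and Thoc2 were nearest in span length. Ppara had 218, of which Nfyc, Jmy and Uhrf1bp1l were nearest. Prdm16 had none, and the closest were Stard9 with 15 and 17 peaks, Ankrd11 with 12 and 15 and Ifit1bl1 with 16 and 16. These likenesses rest on 2 peak lists and 3 numbers for each gene.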

How the data were processed

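Poly(A) RNA of inguinal white fat was fragmented and pulled down with an antibody against m6A, per the labels' protocols. TopHat2 2.1.1, MACS2 and mm10 are named in the submitters' processing notes; the sources used here do not give the counting tool, the peak threshold or the annotation. The deposited input values are raw read counts per Ensembl identifier. The deposited peak lists hold a position and an unlabelled number, taken as the authors' fold (a ratio, IP to input). No value is under 1, which allows that reading but does not settle it.

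Counts were divided by library totals, with TMM (edgeR 4.0.16) and DESeq2 1.42.0 size factors as alternatives (R 4.3.3). Ratios carry exact conditional 95% intervals, which cover counting error only. Peaks went to genes by midpoint, using RefSeq spans of GRCm38.p6. The interval rule was tested on simulated counts with counting error alone, so that test does not speak to spread between animals or libraries. The members and gene lists were chosen with earlier results of these data known. Genes named beside the members are their paralogues, the 3 of largest peak difference per list and up to 3 most alike, some of which are not reported here; Ucp1, Cidea, Dio2, Cox8b and the markers at 0 were named after their values were seen. The 4 members and all 46 and 34 listed genes matched a RefSeq entry by symbol or older symbol. Outside the RefSeq start windows no genome sequence was used, so peaks there have no motif annotation. No peak has an exon or UTR annotation.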

Additional observations from a re-analysis of the deposited data

How the results depend on the processing

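Of 140 alternative values, 123 stayed within 1.5 times the reported number or on the same side of the 1.5-fold rule. The input ratios also kept their direction. Some values could not change: a wider interval leaves the ratios as they are, and the reciprocal overlap and 100 bp settings alter sharing alone. Each value was judged singly, so the tally does not track the difference between the lists. Prdm16, with 14 and 16 peaks in all, counted as unchanged at 14 and 14 top-ranked peaks. Identifiers called higher and lower numbered 774 and 348 with library totals, and 493 and 231 where at least 5 CPM were asked for, which tests fewer identifiers. Higher calls were 69.0% of all calls with totals, 59.6% with TMM factors and 58.5% with DESeq2 size factors. At a fold of at least 4, Prdm16 had 6 vehicle and 4 entacapone peaks with 3 of each shared, Ppargc1a had 2 entacapone peaks, Ppara had 0 vehicle peaks and 0 shared in either list, and Ebf2 had 3 entacapone peaks with 1 shared in each list. With a reciprocal overlap of at least 50%, 1 of the Ppara peaks was shared in each list. With peaks in another gene's span left out, chosen after seeing the data, Prdm16 had 9 and 9 peaks. A fold of at least 2 and any overlap with the span changed no number of the 4 genes. No paired analysis was possible because each group has 1 library. Without replicates no library could be left out, and depth limits Ppargc1a most, at 158 vehicle counts.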

Other observations

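Prdm16os, an antisense neighbour by its name, lies just upstream of Prdm16 and carried peaks outside the span counted here. The vehicle list had peaks at 154641712 to 154641828 (fold 4.65) and 154642291 to 154642342 (fold 3.99) on chromosome 4, and the entacapone list 1 at 154641784 to 154641931 (fold 2.88) that overlapped the first. Beyond the end of Ppara, in the neighbouring gene Cdpf1, both lists had a peak, at 85807222 to 85807303 (fold 1.74) and 85807223 to 85807323 (fold 1.93) on chromosome 15. It lay 371 bp outside the Ppara span in the vehicle list and does not count among the Ppara peaks.

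Many peaks of a list carry exactly the same fold. The fold of 4.94 occurred in a Ppargc1a and an Ebf2 peak of the vehicle list and in 127 peaks besides the 1 in Ppargc1a. The fold of 4.08 occurred in a Ppargc1a and an Ebf2 peak of the entacapone list and in 235 besides the 1 in Ppargc1a. Of the member peaks, 14 of 22 in the vehicle list and 21 of 32 in the entacapone list had a fold found in at least 10 other peaks of the same list, against 63.0% and 64.6% of all peaks. What makes folds repeat was not tested.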
